A study of Mus musculus with 33 samples.

Results

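The transcripts of 10 genes that encode subunits of the NMDA and kainate receptors were followed by RNA-seq in mouse frontal cortex. The genes were taken by symbol from a table of 21565 genes. They are Grin1, Grin2a, Grin2b, Grin2c, Grin2d and Grin3a of the NMDA receptor, and Grik1, Grik2, Grik4 and Grik5 of the kainate receptor. All 10 passed the filter on low values in every comparison. It required a CPM, the reads of a gene scaled to 1000000 reads in all, of 1 or more in each replicate of at least 1 of the groups compared.

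The study compared 33 adult male mice on a C57BL/6J background, each giving 1 library of polyadenylated RNA. Wild-type (WT) mice slept freely (CS, n = 6), were kept awake for 6 hr on a slow treadmill (SD, n = 7), or were kept awake for only 4 hr, by the study's account, and then left to recover for 2 hr (RS, n = 7). Mef2cf/f mice (f/f), in which loxP sites flank an exon for the DNA-binding part of the transcription factor MEF2C, were taken in CS (n = 4) and SD (n = 3). Mef2cCKO mice (cKO) carry the same loxP sites and a Cre recombinase driven by the Camk2a promoter, which is active in excitatory forebrain neurons, and were also taken in CS (n = 3) and SD (n = 3). All tissue was collected at the same time of day. The f/f mice are the controls of the cKO mice, and both carry the loxP sites that WT mice lack. By the study's account, unrecombined Mef2c remained in cKO brain tissue, which holds other cell types, and some cKO mice had also recombined the gene in the germ line.

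NMDA and kainate receptors are glutamate-gated ion channels, each an assembly of several subunits. The NMDA receptor needs GluN1 (Grin1), which binds glycine or D-serine, together with GluN2 subunits (Grin2a to Grin2d), which bind glutamate and set how long the channel stays open. GluN2B leads in the young cortex and GluN2A rises as the cortex matures. GluN3A (Grin3a) also binds glycine and lowers the calcium permeability of the channel. Among kainate receptor subunits, GluK1 and GluK2 (Grik1 and Grik2) form channels of their own and are called low-affinity, while the high-affinity GluK4 and GluK5 (Grik4 and Grik5) need a low-affinity partner.

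The genes share the membrane part of the receptor but differ in base composition, a property that moved with several of the differences described here. The sequences below show this over 60 coding bases of 7 of the genes, 20 codons at the end of a membrane segment that lines the channel pore, a stretch that the family conserves. They run 5′ to 3′ on the coding strand, and capitals mark a G or C at the last position of a codon.
Grin1: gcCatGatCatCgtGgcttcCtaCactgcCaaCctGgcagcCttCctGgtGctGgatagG
Grin2c: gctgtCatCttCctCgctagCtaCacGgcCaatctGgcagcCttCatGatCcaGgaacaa
Grin3a: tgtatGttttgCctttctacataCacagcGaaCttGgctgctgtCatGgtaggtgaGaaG
Grik1: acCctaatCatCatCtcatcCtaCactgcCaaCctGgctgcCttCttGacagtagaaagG
Grik2: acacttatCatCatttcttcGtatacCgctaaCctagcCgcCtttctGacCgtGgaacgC
Grik4: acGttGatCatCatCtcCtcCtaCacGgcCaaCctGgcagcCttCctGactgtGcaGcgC
Grik5: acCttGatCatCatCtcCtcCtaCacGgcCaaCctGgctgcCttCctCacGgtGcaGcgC

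These stretches were read from the GENCODE M21 transcripts of GRCm38 (mm10). Each lies within a single coding exon on the minus strand. The NMDA receptor stretches are at chr2:25297184-25297243 (Grin1), chr11:115253734-115253793 (Grin2c) and chr4:49770455-49770514 (Grin3a). Those of the kainate receptor are at chr16:87935994-87936053 (Grik1), chr10:49240675-49240734 (Grik2), chr9:42543854-42543913 (Grik4) and chr7:25015904-25015963 (Grik5). The Grik5 stretch has 19 of 20 last positions filled by G or C, and the Grik2 stretch has 11. The others have 18 in Grik4, 16 in Grin1, 14 in Grin2c, 13 in Grik1 and 10 in Grin3a. This order is not that of the GC content of the whole transcripts. Over the whole coding sequence, 80.4% of these positions are G or C in Grik5, 49.0% in Grik2 and 60.5% at the median of 11413 genes expressed in all libraries. Over the longest transcript, UTRs included, GC content is 37.9% in Grik2, 44.8% in Grin2a, 45.7% in Grin2b, 47.9% in Grik1 and 49.2% in Grin3a. It is 52.2% in Grik4, 59.4% in Grin1, 61.7% in Grik5, 62.1% in Grin2c and 65.0% in Grin2d, beside a median of 49.4% over expressed genes.

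The libraries held 18935045 to 249046089 reads each. Of these, Grin2d had 124 to 1080 a library and Grin2b had 34805 to 370525. Levels are given as CPM rescaled between libraries by median-of-ratios factors. Markers of excitatory and inhibitory neurons, astrocytes, oligodendrocytes and their precursors, microglia and endothelial cells all reached a CPM of 1 in every library, and none was at 0. Because the tissue is bulk, fewer cells of a type and less RNA per cell cannot be told apart. The summed reads of Mef2c, which include exons outside the deleted one, were 957, 1608 and 1727 rescaled CPM in cKO CS and 1080, 1098, 1203 and 1207 in f/f CS, so the gene total does not check the deletion. In the cKO CS group, replicate 8 stood apart with a microglia marker sum of 436 rescaled CPM over 6 markers, against 163 and 195 in the other libraries of the group. Its sum over 3 oligodendrocyte precursor markers was 172, against 80.5 and 83.5.

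The levels per kb of exon set the order of the subunit transcripts. In WT CS, Grik2 had 89.6 ± 27.9 rescaled CPM per kb (SD, n = 6), Grin2a had 74.7 ± 11.3 and Grin2b had 67.0 ± 6.05, and the libraries of neighbours among these 3 genes overlapped. Grin1 followed at 24.8 ± 3.02, and all its libraries lay below those of Grin2b. Grik1 (22.3 ± 4.64), Grik5 (16.8 ± 4.69) and Grik4 (13.5 ± 2.84) came next with overlapping neighbours. Grin2c (5.70 ± 0.794) and Grin3a (5.61 ± 0.932) overlapped each other and lay below all of these. Grin2d, at 0.530 ± 0.148, was the lowest. In f/f CS the order opened with Grin2b (69.7 ± 9.77, n = 4) and Grin2a (67.2 ± 10.3), and Grik2 came after them at 41.3 ± 10.1. The length used decides part of this order, since per kb of the longest transcript Grin1 had 56.2 ± 6.86 in WT CS and overlapped Grin2b at 69.1 ± 6.24. Of the 4 Grin2 transcripts per kb of exon, Grin2a made up 50.3 ± 3.49% and Grin2b 45.4 ± 3.49% in WT CS, and Grin2c 3.88 ± 0.578%. The 4 kainate subunit genes followed here do not include Grik3, another gene of that family. Of the transcripts of these 4 genes alone, Grik2 made up 62.1% there and Grik5 12.4 ± 4.15%.

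**Figure D1:**
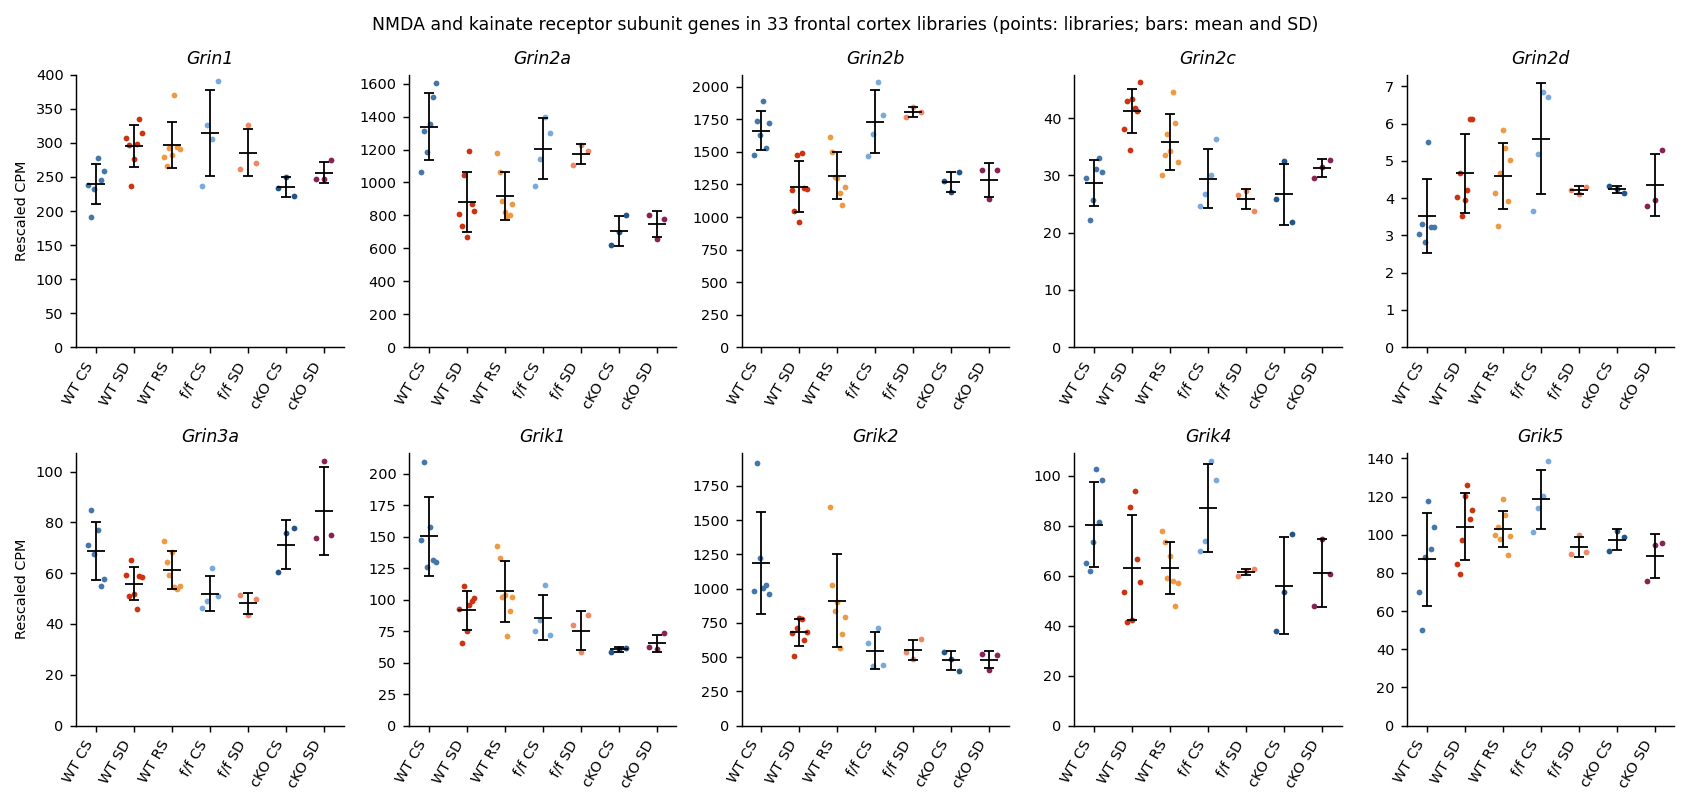
Rescaled CPM of the 10 subunit genes (vertical axes, each from 0) in the 7 groups (horizontal axes), with a point per library and bars for the mean and SD. In WT mice Grik1, Grik2, Grin2a and Grin2b were lower in SD than in CS on this scale (under quantile normalization Grin2b was not lower and Grin2a was not called) and Grin2c was higher, and Grin2a was lower in cKO than in f/f mice. After correction for GC content and transcript length, Grik1 alone of these genes kept its call between WT CS and WT SD.

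The comparison of WT CS with WT SD asks which transcripts move with 6 hr of lost sleep. Grin2a, Grin2b, Grik1 and Grik2 fell and Grin2c rose, though under quantile normalization Grin2b turned in sign (0.11) and Grin2a was not called (-0.18), by limma with Benjamini-Hochberg adjustment over 12913 genes. A gene was called where its adjusted p did not exceed 0.05 and its log2 change was 0.3 or more in either direction. In this comparison 20.5% of all genes tested were called lower and 24.6% higher, beside 4 and 1 of the 10 subunit genes. The median log2 difference was -0.34 over the 10 genes and 0.04 over all genes tested.

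Among the GluN2 genes, Grin2a was at 1060, 1333 and 1606 rescaled CPM in WT CS (lowest, median, highest) and at 671, 828 and 1194 in WT SD. In SD 6 of the 7 libraries lay under the lowest CS library. Its log2 change was -0.62 ± 0.14 (SE), with an adjusted p of 0.00425 by limma. Grin2b was at 1479, 1673 and 1889 in CS and at 966, 1212 and 1495 in SD, a log2 change of -0.44 ± 0.11 (adjusted p = 0.00747 by limma). Here too 6 of the 7 SD libraries lay under the lowest CS library. Grin2c went the other way, from 22.3, 30.1 and 33.1 in CS to 34.5, 41.8 and 46.4 in SD. No SD library of Grin2c overlapped a CS library, and the log2 change was 0.52 ± 0.10 (adjusted p = 0.00195 by limma). Grin2d, a subunit of interneurons in the adult cortex, had a log2 difference of 0.36 ± 0.16 (adjusted p = 0.0633 by limma) and was not called.

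The obligatory Grin1 was at 191, 242 and 278 rescaled CPM in CS and at 237, 298 and 335 in SD. Its log2 difference of 0.297 ± 0.10 had an adjusted p of 0.0226 by limma and lay just under the fold threshold. Grin3a lay just under it as well, at -0.29 ± 0.11 (adjusted p = 0.0407 by limma). Both were called where the fold threshold was dropped, Grin3a also by edgeR and DESeq2 at the full threshold, and Grin1 also under quantile normalization (0.53) and from CPM as deposited.

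Of the low-affinity kainate subunits, Grik1 went from 126, 139 and 209 rescaled CPM in CS to 65.8, 96.0 and 110 in SD, and the groups did not overlap. The log2 change was -0.71 ± 0.14 (adjusted p = 0.00202 by limma). Grik2 went from 960, 1018 and 1916 to 505, 686 and 789, again without overlap, a change of -0.77 ± 0.16 (adjusted p = 0.00273 by limma). The high-affinity genes were not called, with log2 differences of -0.38 ± 0.20 for Grik4 and 0.29 ± 0.18 for Grik5.

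The direction of these differences went with the GC content of the transcripts. Across 12442 genes, the Spearman rho of the WT CS to SD log2 difference with GC content was 0.72, and over the 10 subunit genes alone it was 0.93, both given as descriptions of the same libraries. The 6 genes lowest in GC content, from Grik2 to Grik4, had negative differences, and the 4 highest, from Grin1 to Grin2d, had positive ones. Single libraries showed the trend too. The rho of a library's deviation from the mean of all libraries with GC content was -0.74 to -0.10 in WT CS and 0.026 to 0.77 in WT SD, and the groups did not overlap.

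**Figure D2:**
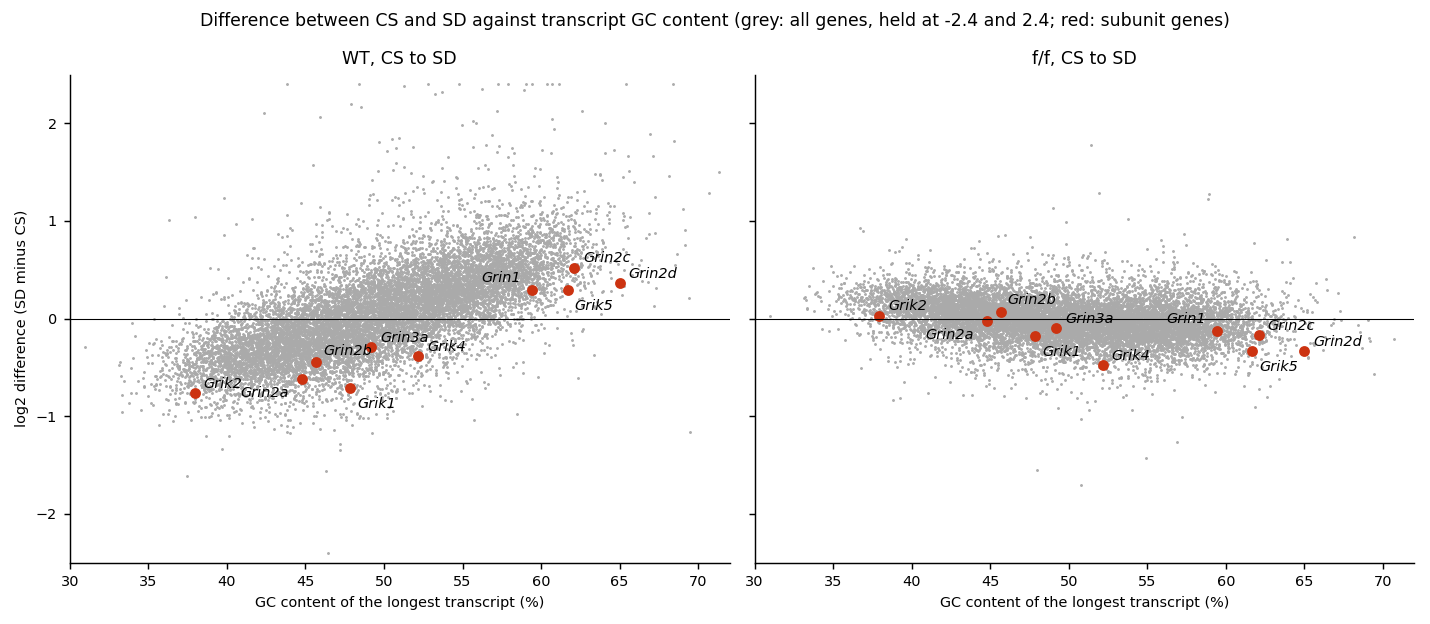
The log2 difference between CS and SD (vertical axis) against the GC content of the longest transcript in percent (horizontal axis) in WT mice (left) and f/f mice (right), with all genes in grey and the 10 subunit genes in red. In WT mice differences rise with GC content from Grik2 (37.9%) to Grin2d (65.0%), and in f/f mice they do not.

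When each library was corrected for a smooth trend on GC content and transcript length, 20.4% of all genes were called in WT CS to SD, beside 2 of the 10 subunit genes. Grik1 remained lower, at -0.65 ± 0.12, and Grik4 was now called as well, at -0.47 ± 0.16. Grik5 was at -0.28 ± 0.10, just under the fold threshold. The other genes called before the correction were now at -0.23 for Grin2a, -0.025 for Grin2b, -0.19 for Grik2 and -0.043 for Grin2c. All 10 corrected values were negative.

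**Figure D3:**
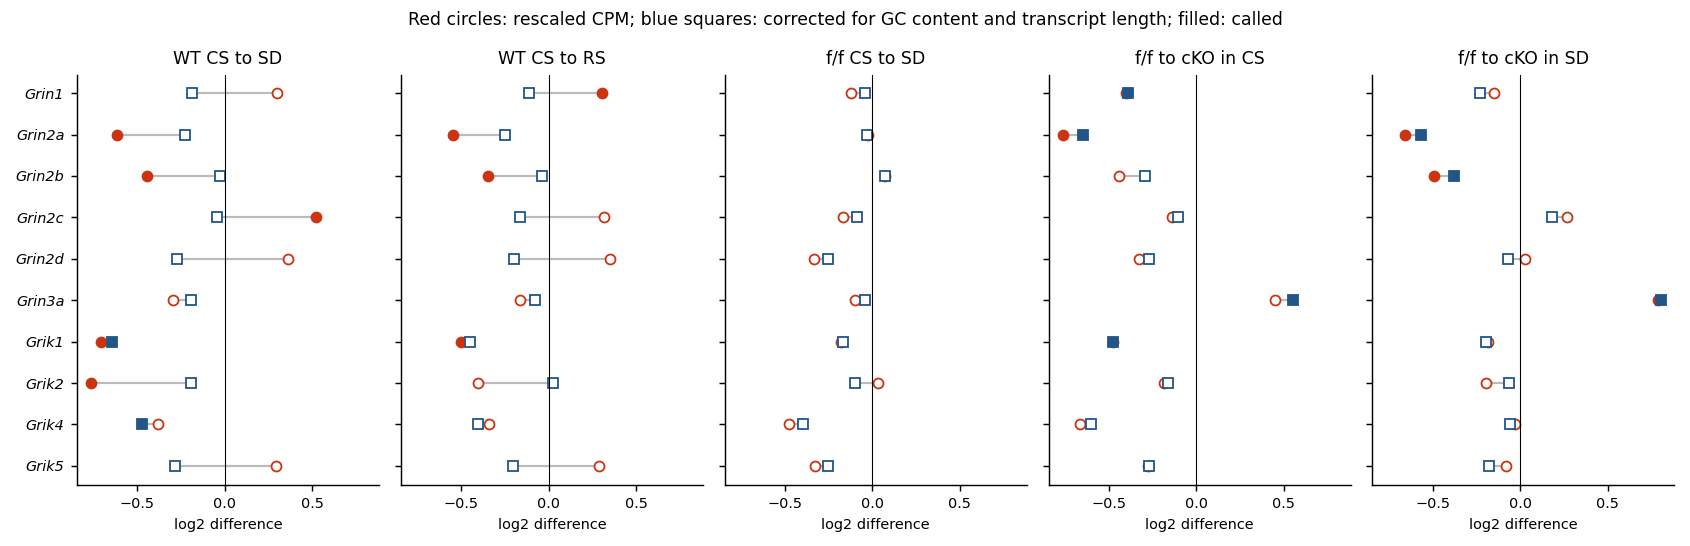
Log2 differences of the 10 subunit genes (horizontal axes) in 5 comparisons, from rescaled CPM (red circles) and after correction for GC content and transcript length (blue squares), filled where called. Between WT CS and either WT SD or WT RS the correction moved Grin1, Grin2c, Grin2d and Grik5 from above 0 to below it, and in RS it moved Grik2 from below 0 to just above it (0.027). The differences called between f/f and cKO mice kept their sign and call.

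The comparison of WT CS with WT RS asks how transcripts stand after 4 hr of lost sleep and 2 hr of recovery sleep, so RS did not follow the same 6 hr of lost sleep as SD. Grin2a (-0.55 ± 0.12), Grin2b (-0.34 ± 0.11, but 0.024 under quantile normalization) and Grik1 (-0.50 ± 0.16) fell on the log2 scale and Grin1 (0.30 ± 0.10) rose, with adjusted p of 0.0329, 0.0431, 0.0438 and 0.0457 by limma over 12752 genes. Under quantile normalization Grin1 alone kept its call (0.46), and Grin1 was not called by edgeR or DESeq2. Of all genes 8.22% were called lower and 9.28% higher. Grin2a was at 796, 871 and 1181 rescaled CPM in RS, and Grik1 at 71.3, 102 and 142, and both overlapped CS. Grik2 spread from 566 to 1596 in RS, and its difference of -0.40 ± 0.22 was not called. No subunit gene was called after the correction for GC content and length, where Grin1 was at -0.11, Grik1 at -0.45 and Grik4 at -0.41, although 4 of the 10 had an unadjusted p under 0.05. The 4 calls made without the correction were each lost in 7 to 9 of the 13 fits that left out 1 library. All 4 were lost together without RS replicate 3, 4, 5, 6 or 12 and without CS replicate 2 or 3. In these fits almost all other genes lost their calls as well. Of the 12752 genes tested, limma called 0 without RS replicate 3, 5, 6 or 12 or CS replicate 3 (4544 to 5650 had an unadjusted p under 0.05), 3 without RS replicate 4 and 98 without CS replicate 2. Without CS replicate 1 the calls of Grin1, Grin2b and Grik1 were lost, and without CS replicate 4 those of Grin2b and Grik1, where 223 and 2601 genes in all were called. The log2 differences over these fits were -0.61 to -0.49 for Grin2a, -0.39 to -0.30 for Grin2b, -0.58 to -0.40 for Grik1 and 0.24 to 0.35 for Grin1.

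Between WT SD and WT RS no subunit gene was called by limma, edgeR or DESeq2, and Grin2c alone had an unadjusted p under 0.05 by limma (log2 difference -0.20 ± 0.09), beside 2 genes by edgeR and 2 by DESeq2. SD and RS differ in the hours of lost sleep as well as in recovery. Of all 12921 genes tested, 0.0155% were called higher in RS and 0.00774% lower. SD and RS are each set against the same 6 CS libraries, so their differences from CS are not independent of each other.

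In f/f mice the comparison of CS with SD gave no called subunit gene by limma or edgeR, at a background of 0.0242% called higher and 0.0161% lower over 12410 genes. The high-affinity kainate genes had an unadjusted p under 0.05 and groups that did not overlap. Grik4 was at 69.9, 73.8, 98.3 and 106 rescaled CPM in f/f CS and at 59.9, 61.7 and 62.6 in f/f SD, a log2 difference of -0.48 ± 0.14 (adjusted p = 0.164 by limma). It was called lower by DESeq2. Grik5 was at 101, 114, 120 and 139 in CS and at 90.1, 91.2 and 99.7 in SD, a difference of -0.33 ± 0.10 (adjusted p = 0.178 by limma). Without f/f CS replicate 1 both were called, at -0.57 for Grik4 and -0.40 for Grik5, in a fit that called 4.75% of all genes. The genes that fell in WT SD had intervals that reached across 0 here, with -0.025 (95% interval -0.31 to 0.26) for Grin2a, 0.07 (-0.20 to 0.34) for Grin2b, -0.18 (-0.57 to 0.20) for Grik1 and 0.030 (-0.36 to 0.42) for Grik2. Over the 10 genes the rho of the f/f difference with GC content was -0.72, opposite in sign to that in WT mice.

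Whether the response to SD differed between WT and f/f mice was tested as an interaction over 13106 genes, called on the adjusted p alone. Of all genes 15.1% were called, and of the 10 subunit genes Grik2 (0.80 ± 0.27, adjusted p = 0.0488 by limma) and Grin2c (-0.69 ± 0.17, adjusted p = 0.0229 by limma) were. By edgeR Grin2c alone was called. Grik2 fell in WT and was at 0.030 in f/f, while Grin2c rose in WT and was at -0.17 in f/f. The call of Grin2c was lost without f/f CS replicate 4 or f/f SD replicate 1 or 3, and its interaction ran from -0.77 to -0.58 over the 20 fits that left out 1 library. The call of Grik2 was lost in 12 of these fits, those without WT SD replicate 1, 2, 4, 8 or 9, WT CS replicate 1 or 3, f/f CS replicate 2 or 4, or any f/f SD library, with a range of 0.65 to 0.93. The fits without f/f CS replicate 4 and f/f SD replicate 1 or 3 called 1.33%, 0.702% and 0.175% of all genes. Over the 10 genes, the interaction ran with GC content at a rho of -0.99. After the correction 2.00% of all genes were called and no subunit gene by limma, Grik2 being at 0.09 and Grin2c at -0.043, and 1 of the 10 had an unadjusted p under 0.05. WT and f/f mice differ in genotype and the numbers of libraries, and their libraries in depth, with 44395583 to 249046089 reads in WT and 18935045 to 52918796 in f/f. The genes of the table summed to 925580 to 985958 CPM in WT libraries and to 1000000 in f/f libraries. By the study's account f/f mice, although backcrossed, could still differ from WT mice in genetic background. What these do to the difference cannot be told apart.

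In cKO mice no subunit gene was called between CS and SD by limma, edgeR or DESeq2, and none had an unadjusted p under 0.05 in these fits. Over 12810 genes 0.0234% were called higher and 0% lower. The widest intervals were those of Grik4, at 0.16 (95% interval -0.47 to 0.79), and Grin3a, at 0.23 (-0.14 to 0.61), and the WT change of Grin2c (0.52) lay inside its interval here (-0.10 to 0.57). Grin2a was at 0.08 (-0.23 to 0.38) and Grik1 at 0.11 (-0.10 to 0.32). The difference between WT and cKO mice was not tested. The interaction of SD with the cKO genotype called no subunit gene by limma, edgeR or DESeq2, none had an unadjusted p under 0.05, and 0.00778% of 12860 genes were called.

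**Figure D4:**
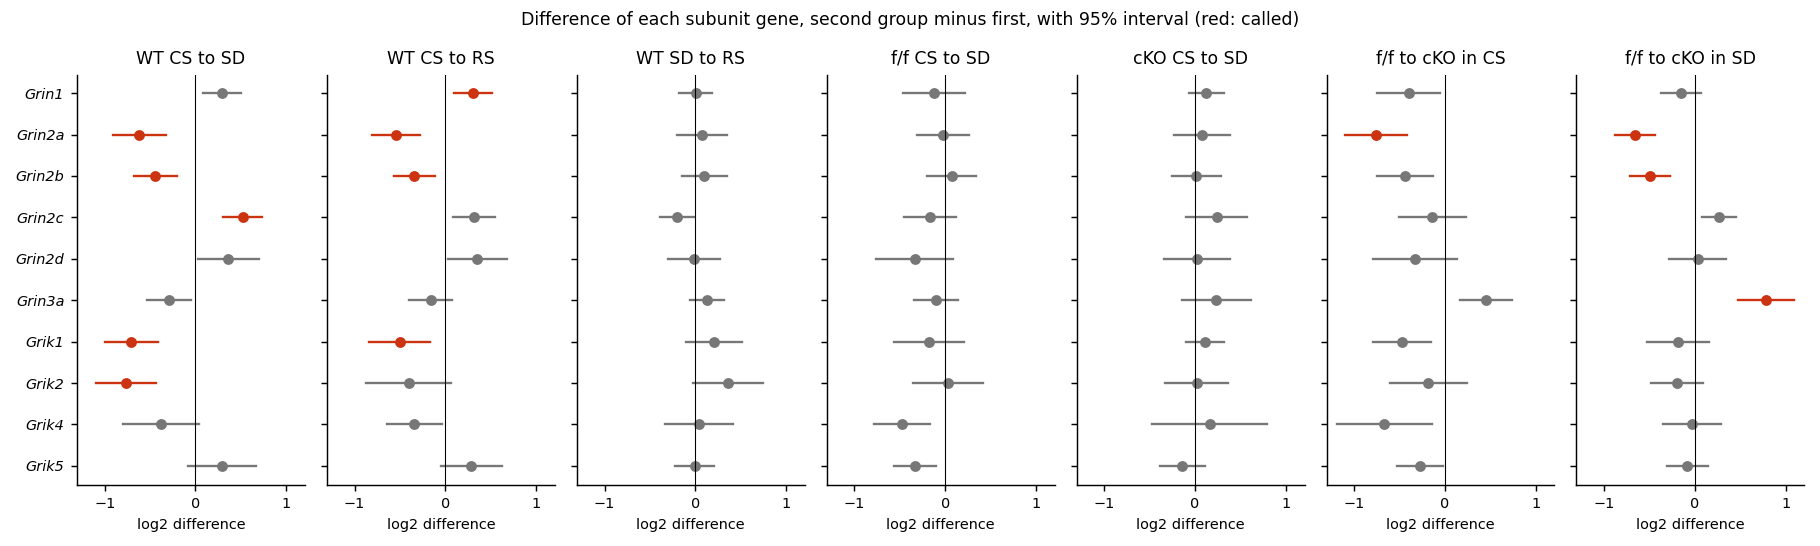
Log2 difference of each subunit gene, the second group named minus the first (horizontal axes), in the 7 comparisons, as points with 95% intervals from limma and in red where called. Calls fall in WT CS to SD, WT CS to RS and the comparisons of f/f with cKO mice, and no gene was called in WT SD to RS or within f/f or cKO mice.

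The comparison of f/f with cKO mice asks how loss of MEF2C in excitatory neurons goes with these transcripts, within each sleep state. In both states Grin2a was lower in cKO mice. In CS it was at 978, 1141, 1302 and 1396 rescaled CPM in f/f and at 621, 699 and 803 in cKO, without overlap, a log2 change of -0.76 ± 0.15 (adjusted p = 0.0218 by limma over 12681 genes). By limma and by edgeR it was the only subunit gene called there, and limma called 4.50% of all genes lower and 3.17% higher. DESeq2 called 6 of the 10 (Grik1, Grik4, Grin1, Grin2a and Grin2b lower, Grin3a higher) and 16.5% of all genes, and limma with all groups in one fit called the same genes other than Grin1, with 17.1% of all genes. In SD Grin2a was at 1107, 1190 and 1225 in f/f and at 655, 776 and 805 in cKO, a log2 change of -0.66 ± 0.10 (adjusted p = 0.00441 by limma over 12774 genes). Here 5.99% of all genes were called lower and 9.10% higher.

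Grin2b was also lower in cKO SD, at 1136, 1362 and 1362 rescaled CPM against 1766, 1810 and 1843 in f/f SD. The libraries did not overlap, and the log2 change was -0.49 ± 0.10 (adjusted p = 0.0127 by limma). The call was lost under quantile normalization (-0.31) and without f/f SD replicate 1 (-0.51) or 3 (-0.49). In CS the difference of Grin2b was -0.44 ± 0.14 (adjusted p = 0.0796 by limma), also without overlap, and was called by DESeq2 and with all groups in one fit.

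Grin3a rose in cKO SD. It was at 43.6, 49.7 and 51.4 rescaled CPM in f/f SD and at 73.9, 75.0 and 104 in cKO SD, all cKO libraries above all f/f libraries. The log2 change was 0.79 ± 0.13 (adjusted p = 0.00759 by limma). In CS Grin3a was at 46.1, 48.9, 50.9 and 61.9 in f/f and at 60.3, 75.8 and 77.6 in cKO, a difference of 0.45 ± 0.13 that was not called (adjusted p = 0.0616 by limma). It was called in CS by DESeq2, from CPM as deposited, with all groups in one fit, without cKO CS replicate 5 (0.57) or f/f CS replicate 3 (0.54), and with GC content and length corrected for (0.55 ± 0.10). Whether the change of Grin3a differed between CS and SD was tested by the interaction, at 0.33 ± 0.20 (adjusted p = 0.685 by limma).

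The subunit differences called between f/f and cKO mice kept their sign and call after the correction for GC content and length. Over the 10 genes the rho of the difference with GC content was 0.73 in SD and 0.31 in CS. Over all genes with annotation it was 0.24 in SD and 0.017 in CS. In SD the corrected values were -0.57 for Grin2a, -0.38 for Grin2b and 0.80 for Grin3a, all called. In CS, 4 subunit genes and 10.5% of all genes were called after it, Grin2a (-0.65), Grik1 (-0.47) and Grin1 (-0.39) lower and Grin3a higher. Without cKO CS replicate 8, the library with the high microglia sum, Grin2a was at -0.86 in CS and called, and Grin3a was at 0.38 and not called. Without that library Grik4 was called too, at -0.92. The call of Grin2a in CS was lost without cKO CS replicate 5 (-0.67) or 7 (-0.76) or f/f CS replicate 2 (-0.78), in fits that called 4.18%, 1.34% and 1.38% of all genes. Over all fits that left out 1 library its log2 difference in CS was -0.86 to -0.67.

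Some cell type markers were called in these comparisons as well. Between f/f and cKO mice limma called 9.10% of all genes higher and 5.99% lower in SD, and 3.17% and 4.50% in CS. The sum of 7 excitatory neuron markers was 2417 to 2565 rescaled CPM in f/f SD and 1936 to 2143 in cKO SD, with 2 of the 7 called lower, among them Nrgn (-0.66). Slc17a7 of the same list had a mean of 501 in f/f SD and 537 in cKO SD and was not called. The sum of 8 inhibitory neuron markers was 771 to 853 and 938 to 1049 in the same groups, with Gad1, Gad2 and Slc32a1 called higher and Pvalb and Lhx6 lower. The sum of 6 microglia markers was 149 to 155 and 186 to 204, with 4 of the 6 called higher and none lower. The sum of 7 astrocyte markers was 4739 to 5043 and 4375 to 4676, with Aqp4 and Gfap called higher. Of the oligodendrocyte markers Mog was called lower in SD (-0.42), and of the endothelial markers Cldn5 was called higher (0.38). In CS the sums of excitatory (1979 to 2393 in f/f, 1684 to 2186 in cKO) and inhibitory markers (728 to 856 and 792 to 1027) overlapped, with 1 of the 8 inhibitory markers, Gad2, called higher and no excitatory marker called by limma. Of the other lists in CS, the oligodendrocyte markers Cnp (0.59) and Mog (0.48) and the astrocyte marker Aqp4 (1.33) were called higher and the endothelial marker Flt1 (-0.50) lower. The microglia sum was 137 to 158 in f/f CS and 163 to 436 in cKO CS, with none of its 6 markers called by limma. Their part in the differences of Grin2a, Grin2b and Grin3a was not tested. In WT mice the inhibitory sum was 723 to 880 in CS and 822 to 1080 in SD, with 2 of 8 markers called higher, and the excitatory sum 1392 to 1859 and 1752 to 2273, with 1 of 7 called in each direction. Of all genes tested in WT CS to SD, 24.6% were called higher and 20.5% lower.

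The balance between subunits was followed as 3 ratios of CPM per kb of exon, in 7 comparisons of groups, by two-sided exact permutation tests adjusted over the 21 tests. The ratio of Grin2a to Grin2b was 0.993, 1.03 and 1.38 in WT CS (lowest, median, highest). It was 0.923, 0.957 and 1.01 in f/f CS, 0.673, 0.814 and 0.828 in cKO CS, 0.868, 0.911 and 0.921 in f/f SD and 0.790, 0.799 and 0.819 in cKO SD. All cKO libraries thus lay below all f/f libraries of the same sleep state. The mean log2 ratio differed by -0.32 in CS (exact permutation p = 0.0571, adjusted 0.178) and by -0.17 in SD (exact permutation p = 0.1, adjusted 0.21). These are the smallest p that 4 against 3 and 3 against 3 libraries can give, so the design cannot reach the threshold here. In f/f mice all SD libraries also lay below all CS libraries, a difference of -0.10 (exact permutation p = 0.0571, adjusted 0.178). In WT mice the log2 ratio was 0.15 ± 0.21 (SD, n = 6) in CS, -0.027 ± 0.08 in SD and -0.054 ± 0.08 in RS, with adjusted p of 0.196 for SD and 0.122 for RS by the exact permutation test. Without WT SD replicate 6 the difference between CS and SD was -0.20 and passed the threshold of 0.05.

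The ratio of Grin1 to the Grin2 sum was 0.133, 0.170 and 0.196 in WT CS, 0.195, 0.311 and 0.333 in WT SD and 0.210, 0.275 and 0.374 in WT RS. On the log2 scale it was higher by 0.77 in SD (exact permutation p = 0.00233, adjusted 0.0245) and by 0.71 in RS (exact permutation p = 0.00117, adjusted 0.0245). The ratio of high-affinity to low-affinity kainate subunits was taken as Grik4 and Grik5 over Grik1 and Grik2, and Grik3 was not part of it. This ratio was 0.114, 0.294 and 0.402 in WT CS and 0.392, 0.471 and 0.548 in WT SD, a log2 difference of 0.79 (exact permutation p = 0.00350, adjusted 0.0245). Grin2a and Grin2b, which make up most of the Grin2 sum, and Grik1 and Grik2 are lower in GC content than Grin1, Grik4 and Grik5. After the correction for GC content and length the 3 differences were -0.057, 0.043 and -0.065, and none passed. The kainate ratio lost its call without WT CS replicate 1 (0.77), 2 (0.54), 3 (0.78) or 5 (0.84). In cKO SD the ratio of Grin1 to the Grin2 sum was 0.240 to 0.287, above the 0.192 to 0.226 of f/f SD, with the smallest p that 3 against 3 libraries can give. No other ratio test passed the threshold with all libraries in.

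**Figure D5:**
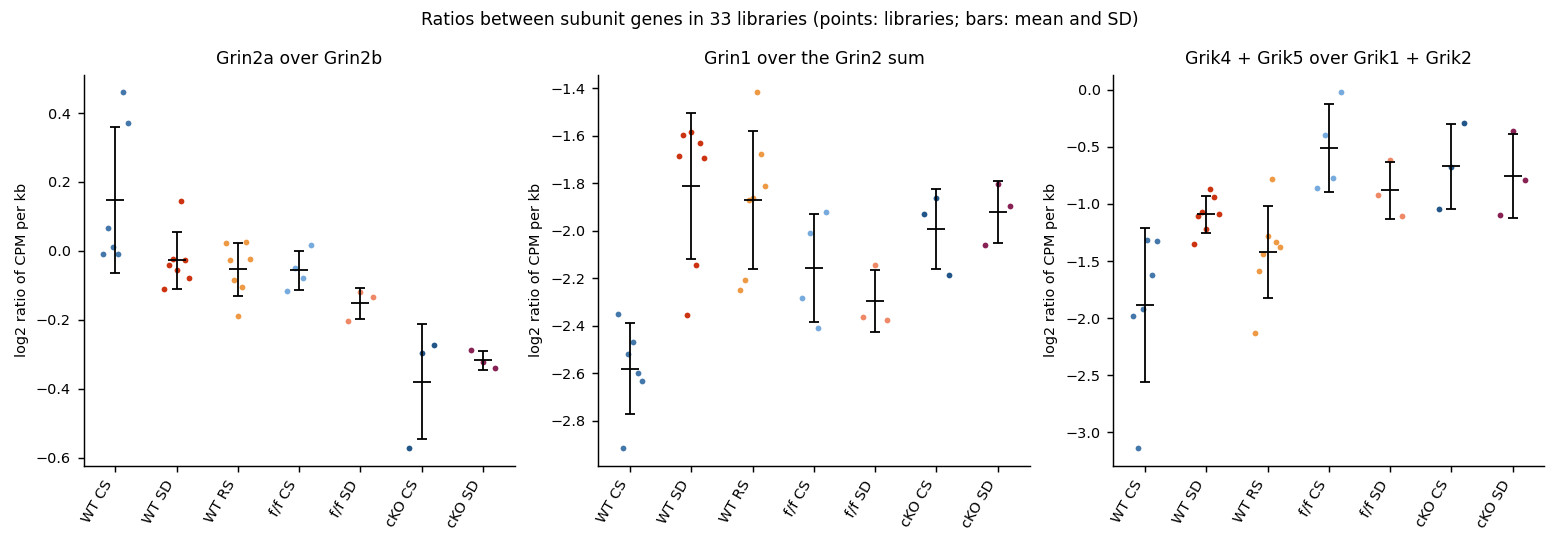
Log2 ratios of CPM per kb of exon (vertical axes) in the 7 groups, with a point per library and bars for the mean and SD: Grin2a over Grin2b (left), Grin1 over the sum of Grin2a to Grin2d (middle) and Grik4 plus Grik5 over Grik1 plus Grik2 (right). All cKO libraries lie below all f/f libraries of the same sleep state on the left, and WT SD lies mostly above WT CS in the other panels.

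The proteins that anchor, carry and modify these receptors were described by a list of 26 genes, 25 of which were tested, as Dao (at most 15 reads a library) did not pass the filter. In WT CS to SD 8 were called higher and 8 lower, beside 24.6% and 20.5% of all genes. The median log2 difference was 0.17 against 0.04 over all genes. Both kainate receptor auxiliary subunit genes fell, Neto1 (-0.66) and Neto2 (-0.44, but 0.10 with GC content and length corrected for). The scaffold genes split. Dlg4, which encodes PSD-95, rose by a log2 value of 0.41, while Dlg1 (-0.48), Dlg2 (-0.74, but 0.063 under quantile normalization), Cask (-0.60) and Lin7a (-0.89) fell. The kinase genes Camk2b (0.35) and Src (0.57), the phosphatase gene Ptpn5 (0.49), the motor gene Kif17 (0.35, but -0.18 with GC content and length corrected for), Nos1 (0.57) and the glycine transporter gene Slc6a9 (0.42) rose. The exchange factor genes Rasgrf1 (-0.32, but 0.00087 under quantile normalization) and Rasgrf2 (-0.42) fell. After the correction for GC content and length 2 of the 25 were called higher and 6 lower, beside 10.2% of all genes in each direction. In WT CS to RS 6 were called higher and 4 lower (9.28% and 8.22% of all genes), and after the correction 1 in each direction (1.74% and 3.44%).

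No gene of that list was called between CS and SD in f/f mice by limma or edgeR (3 and 4 had an unadjusted p under 0.05) and 1 was called lower by DESeq2 (2.22% of all genes). In cKO mice none was called by limma, edgeR or DESeq2, and none had an unadjusted p under 0.05. Between f/f and cKO mice Nos1, the neuronal nitric oxide synthase that binds PSD-95, rose by 0.89 in CS and by 1.46 in SD on the log2 scale. Nos1 was at 23.3, 23.3 and 26.6 rescaled CPM in f/f SD and at 65.6, 68.2 and 70.2 in cKO SD. Rasgrf2, an exchange factor that binds NMDA receptors in the brain, fell by 0.60 in CS and by 0.77 in SD. In SD Dlg1 (-0.37) also fell and Slc6a9 (0.38) rose. The counts of this list by limma were 1 higher and 1 lower in CS and 2 higher and 2 lower in SD, with and without the correction. Of all genes limma called 3.17% higher and 4.50% lower in CS, and 9.10% and 5.99% in SD. After the correction these shares were 3.93% and 6.58% in CS and 7.08% and 6.55% in SD. DESeq2 called 1 higher and 5 lower in CS (7.26% and 9.26% of all genes), where Camk2a (-0.42), Dlg2 (-0.48), Rasgrf1 (-0.44) and Src (-0.32) were added to Rasgrf2. Of 6 other ionotropic glutamate receptor genes, 5 were called lower in WT CS to SD, beside 20.5% of all genes. Gria2, Gria3, Gria4 and Grid1 were among them. After the correction 4 of the 6 were called lower, beside 10.2% of all genes, and Gria2 (-0.018) was not. Gria4 was called lower in WT CS to RS by limma (-0.68) and DESeq2, but not by edgeR or after the correction (-0.47), and Gria1 higher in cKO than in f/f mice in SD, at 0.39.

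Across the 20 WT libraries, the genes most like each subunit gene were found by Pearson's r of log2 rescaled CPM among 11570 genes. These values are descriptions, since the libraries share the sleep states and the trend on GC content. Grik2 ran closest with Galnt13 (r = 0.993), Grm5 (0.992) and Pcdh11x (0.987), and Grik1 with Pcdh15 (0.972), Zfand4 (0.971) and Gmds (0.970). Grin2b ran with Tnr (0.987), Sobp (0.966) and Nxpe4 (0.966), and Grin2a with Atrnl1 (0.977), Rgs6 (0.976) and Mast4 (0.976). Grik4 ran with Csmd2 (0.976), Cacna1a (0.973) and Hivep3 (0.967), and Grik5 with Crtc1 (0.961), Ksr1 (0.953) and Notch3 (0.952). Grin1 ran with Ptprs (0.938), Ubald1 (0.938) and Cpsf1 (0.933), and Grin2c with Slc25a38 (0.939), Ehd1 (0.930) and Uck1 (0.928). Grin3a ran with Pcdh19 (0.914), Atp13a4 (0.907) and Vwc2l (0.896), and Grin2d with Igsf3 (0.864), Foxp4 (0.851) and Dpysl5 (0.841). Between the subunit genes themselves, the highest r was 0.925 for Grin2a with Grin2b, and 0.844 once the mean of each sleep state was taken out. Grin2c ran against Grik2 (r = -0.868) and Grik1 (-0.865). Grin2a and Grin2b each ran with Grik4 within sleep states, at 0.851 and 0.869.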

How the data were processed

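Polyadenylated RNA of frontal cortex was sequenced in stranded paired-end libraries. According to the study's methods, reads were trimmed with Trimmomatic and mapped with STAR to mm10, HTSeq assigned the uniquely mapped ones to genes, and the authors deposited the result as CPM from edgeR. Versions, annotation release and strand setting are not given in the sources used here. All 711645 deposited CPM values were whole multiples (within 0.01) of what 1 read was worth in their library, which gave back the reads. Genes in the table summed to less than 1000000 CPM in WT libraries only. CPM were therefore rescaled with median-of-ratios factors (11570 genes with a CPM of 1 or more in all libraries), 0.5 was added and log2 taken. Each comparison was fitted with limma 3.58.1 in R 4.3.3 on its own groups, after a test on simulated data. The labels name the libraries as separate samples of a group, and p-values measure the spread between these.

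As alternatives, the pseudocount was set to 0.1 or 1, the deposited CPM were used without rescaling, quantile normalization replaced the factors, the filter was dropped or raised to a CPM of 5 in all compared libraries, and each library was corrected for splines on GC content (5 degrees of freedom) and longest transcript length (4). The recovered reads were tested with edgeR 4.0.16 and DESeq2 1.42.0. All groups were fitted together, the fold threshold was removed, the replicate number entered as a block, and 1 library at a time was left out. Of 21565 symbols 19473 were found in GENCODE M21, 243 of them through synonyms. Members, gene lists and tests were chosen with earlier results of these data known. The genes named are the members, the listed genes, Mef2c, and for each member the 3 with the highest Pearson's r. Some genes of these lists and some sequences are not reported here.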

Additional observations from a re-analysis of the deposited data

Results flagged for a closer look

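In WT RS, replicate 5 had 370 rescaled CPM of Grin1, far above the next library (295) in a group that reached down to 266. In WT CS, replicate 4 had 5.51 rescaled CPM of Grin2d, against 3.30 in the next library and 2.83 in the lowest. In WT CS, replicate 2 had 1916 rescaled CPM of Grik2, against 1224 in the next library and 960 in the lowest. These were 3 of 40 sets of 4 to 7 libraries examined for a single library far from the others, and chance flags about 1 in 20. Without WT CS replicate 2, Grik2 was at -0.62 between CS and SD and still called.

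The log2 difference between CS and SD differed between WT and f/f mice by 0.80 for Grik2 and by -0.69 for Grin2c, by the interaction term in limma. With GC content and length corrected for, the interactions were 0.09 and -0.043, and neither was called.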

How the results depend on the processing

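In WT CS to SD, where 1 subunit gene was called higher and 4 lower, 4 were called higher from CPM as deposited, beside 47.3% of all genes, 2 with quantile normalization (18.3%), with all groups in one fit (26.4%) or with no fold threshold (27.2%), and 0 once GC content and length were corrected for (10.2%). By edgeR and DESeq2 1 was called higher and 5 lower, Grin3a being added. Of all genes edgeR called 20.9% higher and 22.6% lower, and DESeq2 23.9% and 23.0%. Quantile normalization and the correction each left 2 called lower (20.3% and 10.2% of all genes). In WT CS to RS (1 higher, 3 lower), 2 were called higher and 1 lower from CPM as deposited (18.4% and 2.47% of all genes), 0 and 1 without the filter (0.818% and 1.18%), and 0 and 0 after the correction (1.74% and 3.44%). There edgeR called 0 higher (5.89% of all genes), all groups in one fit 2 higher (18.1%), and quantile normalization 0 lower (7.03%). In f/f CS to SD DESeq2 called 1 lower (2.22% of all genes). Between f/f and cKO mice in CS (0 higher, 1 lower), 1 was called higher from CPM as deposited (6.96% of all genes), and 1 higher each with 3, 5 and 4 lower after the correction, by DESeq2 and with all groups in one fit, which called 10.5%, 16.5% and 17.1% of all genes. In SD (1 higher, 2 lower), 2 were called higher from CPM as deposited (13.3% of all genes) and 1 lower with quantile normalization (5.65%). The WT and f/f interaction (1 in each direction) had 0 higher with a pseudocount of 0.1 (9.06% of all genes), CPM as deposited (3.87%), quantile normalization (7.46%), no filter (3.75%), the correction (1.33%) or edgeR (7.56%). It had 2 higher with a CPM of at least 5 (13.3%) and 3 by DESeq2 (13.2%). Called lower were 4 with CPM as deposited (22.3%), 2 with quantile normalization (3.24%) and 0 with the correction (0.665%). CPM as deposited moved the median of all genes to 0.30 in WT CS to SD, 0.20 in WT CS to RS, 0.13 between f/f and cKO mice in CS and -0.30 in the WT and f/f interaction. Apart from the construction of each fit, the cause was not tested.

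Turned in sign by the correction were Grin1 (-0.19), Grin2c (-0.043), Grin2d (-0.27) and Grik5 (-0.28) in WT CS to SD, Grin1 (-0.11), Grin2c (-0.16), Grin2d (-0.19) Grik5 (-0.20) and Grik2 (0.027) in WT CS to RS, and Grin1 (0.15), Grin2d (0.021) and Grik5 (0.031) in the WT and f/f interaction. Quantile normalization turned Grin2b to 0.11 in SD and 0.024 in RS. The difference in the log2 ratio of Grin1 to the Grin2 sum was -0.057 (CS to SD), 0.043 (CS to RS) and 0.10 (SD to RS) in WT mice after the correction. The difference in the log2 kainate ratio was then -0.065 (CS to SD) and -0.21 (CS to RS) in WT mice and -0.044 between f/f and cKO mice in SD.

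With 1 library left out, the genes called numbered 1 to 3 higher and 4 to 5 lower in WT CS to SD, and all 5 calls held in all 13 fits. They numbered 0 to 2 and 0 to 5 in WT CS to RS, 0 to 2 lower in f/f CS to SD, 0 to 1 and 0 to 2 between f/f and cKO mice in CS, 1 to 2 lower in SD, and 0 to 3 in each direction in the WT and f/f interaction. Of all genes, these fits called 18.8% to 27.1% higher and 16.1% to 22.4% lower in WT CS to SD. In WT CS to RS they called 0% to 15.7% and 0% to 15.1%, and in f/f CS to SD 0% to 2.10% lower. Between f/f and cKO mice they called 0.560% to 2.72% and 0.741% to 4.17% in CS, and 2.51% to 6.84% lower in SD. In the interaction they called 0.0763% to 13.7% and 0.0992% to 11.5%. The difference in the log2 ratio of Grin2a to Grin2b ran from -0.21 to -0.11 in WT CS to SD, from -0.041 to 0.0021 in WT SD to RS and from -0.033 to 0.12 in cKO CS to SD. The difference for Grin1 to the Grin2 sum ran from -0.15 to 0.0048 in WT SD to RS and from -0.022 to 0.14 in cKO CS to SD. The difference for the kainate ratio ran from 0.54 to 0.90 in WT CS to SD, from -0.43 to -0.21 in WT SD to RS, where it passed the threshold without WT RS replicate 5, from -0.27 to 0.11 in cKO CS to SD, and from -0.35 to 0.026 and -0.063 to 0.30 between f/f and cKO mice in CS and SD.

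The labels do not say whether the replicate numbers pair the samples, and the main fits did not take them as pairs. Libraries with the same number were compared by r of their deviations from the group means over the genes tested. This r was -0.33 to 0.55 in WT CS to SD and -0.73 to 0.33 in WT SD to RS. It was 0.068 to 0.67 in WT CS to RS, 0.047 to 0.26 in f/f mice, and 0.069 and 0.15 in cKO mice. Whether the numbers mark pairs is thus not settled. With the replicate block, 0 subunit genes were called in either direction in WT CS to SD and in the WT and f/f interaction, where 2.22% and 0% of all genes were called (6177 and 3498 genes had an unadjusted p under 0.05 by limma). In WT CS to RS the block gave 2 called higher and 2 lower (Grik1, Grin1, Grin2a and Grin2c), beside 19.6% and 13.9% of all genes. No paired analysis was possible for f/f against cKO mice because too few numbers were shared. Of 90 values of the 10 genes, 37 were called in some fit. Their 871 refits kept the call and sign in 701, lost the call in 86, gained it in 71 and turned the sign in 13. Depth limits Grin2d most, with 124 reads in its smallest library.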

Other observations

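Other cell type markers in WT mice gave counts of their own between CS and SD. Of 7 astrocyte markers 3 were called higher by limma, Gfap among them at a log2 change of 1.09, and the summed level, carried by the abundant Slc1a2, was 3611 to 5097 rescaled CPM in CS and 3251 to 4340 in SD. Of the 3 oligodendrocyte precursor markers Cspg4 (0.77) and Gpr17 (0.41) were called higher, and none of the 3 was called after the correction for GC content and length. Among the 6 microglia markers Tmem119 rose by 0.76 and P2ry12 fell by 1.01 on the log2 scale, while the summed level was 150 to 212 in CS and 150 to 186 in SD. After the correction 0 microglia markers were called higher and 2 lower, and 2 astrocyte markers were called higher and 0 lower.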
